A study of Mus musculus with 12 samples.

Results

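The 9 genes described here, which encode muscle ankyrin repeat proteins, LIM-only proteins, Xin repeat proteins and a nebulin-related anchoring protein, were followed in the mouse heart 9 h after transverse aortic constriction (TAC), a narrowing of the aortic arch that loads the left ventricle with pressure. They are Ankrd1, Ankrd2, Ankrd23, Csrp3, Fhl1, Fhl2, Xirp1, Xirp2 and Nrap, and all 9 were found by symbol, each in 1 row, among the 13552 genes of the deposited table. They were grouped by what their proteins are, but with results of these same hearts already known, including that Ankrd2 was among the largest increases after TAC. Their levels after TAC are therefore given as a description. No p-value of a TAC contrast is printed for them, and where the text says that a member passed the threshold used for all genes, this describes the member and is no independent test. The hearts came from male mice, TAC or sham surgery having been done at 8 to 10 weeks of age. Wild-type (WT) mice and mice homozygous for the Bcl-xL S14A knock-in allele (KI) each had either TAC or sham surgery, which made 4 groups of 3. All mice are labelled C57BL/6, and the study's methods give C57BL/6J for both genotypes. The KI allele puts alanine in place of a phosphorylated serine of the survival protein Bcl-xL in every cell of the body. The line was derived from 3 embryonic stem cell clones, its selection cassette was removed with a ubiquitously expressed Cre, and it was backcrossed for more than 8 generations. The study's methods say that male WT mice were purchased and do not mention littermates. A difference between KI and WT hearts therefore cannot be told apart from a difference between a bred and a purchased colony. Each heart gave 1 poly(A), strand-specific library, and the groups are named here with the mouse numbers of the labels.

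These proteins sit where force passes through the cardiomyocyte. The muscle ankyrin repeat proteins bind the elastic part of titin in the I-band and can also enter the nucleus, and Ankrd1 is a long-used marker of cardiac stress. LIM-only proteins such as Csrp3 (muscle LIM protein) and the Fhl proteins bind titin, alpha-actinin and signalling enzymes at the Z-disc and I-band. The Xin proteins Xirp1 and Xirp2 and the anchoring protein Nrap bind actin filaments, mainly at the intercalated disc, where cardiomyocytes are joined end to end. Ankrd2 is the member best known from slow skeletal muscle, where stretch raises it.

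Short promoter stretches are shown because the genes differed widely in how far their RNA moved. RefSeq promoter windows on GRCm38.p6, from 250 bases before to 50 after a gene start, were at hand for 8 of the 9 genes, as 12 windows in all. They were searched on both strands for the MCAT element bound by TEAD factors (CATTCC), the AP-1 site (TGANTCA), the cyclic AMP response element (TGACGTCA), the letters TATAAA, the CArG box bound by serum response factor and the MEF2 motif. In the lines that follow, capitals mark the matching letters, in the orientation of the gene. The Xirp2 and Fhl2 stretches are the 250 bases just before a start, and the 30-base stretches are shown where an exon of another annotated transcript reaches into the window.
Ankrd1, chr19:36120037-36120066, minus strand, MCAT: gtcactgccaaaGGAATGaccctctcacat
Ankrd1, chr19:36119950-36119979, minus strand, MCAT: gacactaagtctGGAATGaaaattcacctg
Ankrd2, chr19:42035986-42036015, plus strand, TATAAA: ggtgcttgggccTATAAAgaccccatgccc
Fhl1, chrX:56779571-56779600, plus strand, CArG box: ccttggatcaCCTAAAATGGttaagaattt
Xirp2, chr2:67445752-67446001, plus strand, AP-1 then MEF2: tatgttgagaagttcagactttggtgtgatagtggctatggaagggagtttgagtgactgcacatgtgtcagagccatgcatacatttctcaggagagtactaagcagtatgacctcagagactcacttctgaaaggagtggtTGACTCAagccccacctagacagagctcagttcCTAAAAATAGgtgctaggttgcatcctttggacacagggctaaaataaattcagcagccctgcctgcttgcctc
Fhl2, chr1:43163962-43164211, minus strand, CArG box: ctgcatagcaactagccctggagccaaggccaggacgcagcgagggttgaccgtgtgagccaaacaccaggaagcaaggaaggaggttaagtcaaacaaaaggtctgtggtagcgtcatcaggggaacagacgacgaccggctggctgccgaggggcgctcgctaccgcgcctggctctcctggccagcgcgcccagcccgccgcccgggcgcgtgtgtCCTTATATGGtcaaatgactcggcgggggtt

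Among the ankyrin repeat genes, Ankrd1 and Ankrd23 shared the MCAT letters and Ankrd2 did not hold them. The window of Ankrd1 had 2 MCAT matches, that of Ankrd2 had a TATAAA match beginning 29 bases before the start, and both windows of Ankrd23 had an MCAT match. A CArG box was found in 3 of the 12 windows, namely both windows of Fhl2 and 1 of Fhl1, against 1.63% of all 32851 promoter windows. In the Fhl2 window at the other start, a TATAAA match lay inside a MEF2 match. MCAT was found in 3 of the 12 windows against 14.7% of all promoters, TATAAA in 3 against 13.6%, MEF2 in 2 against 3.19%, AP-1 in 1 against 7.81% and the cyclic AMP response element in 0 against 1.79%. The windows of Csrp3 and Nrap held none of the 6 motifs. These are matches of letters in short windows and say nothing about binding.

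Depth recovered from the table ran from 23650389 to 32455134 reads on genes, with 25715454 to 29608696 in WT TAC and 30298199 to 31676905 in KI TAC. All 10 cardiomyocyte markers were measured in every heart, and their summed level lay between 14420 and 25225 RPKM (reads normalised to exon length and to library depth), with overlapping ranges in the 4 groups. Actc1, the cardiac actin gene, was the largest term of that sum in every heart. Of the 10 markers, 4 were lower in every WT TAC heart than in every WT sham heart. These were Myh6, at 3341 to 4836 RPKM in WT sham and 1392 to 2497 in WT TAC, and Myl2, Myl3 and Tnni3. Between the TAC groups, Tnni3, Tnnc1, Myl2 and Myl3 were higher in every KI TAC heart than in every WT TAC heart, Myl2 being at 1150.2 to 1385 RPKM in WT TAC and 2181 to 2662 in KI TAC. Between KI TAC and KI sham, Pln was lower in every heart and the other 9 markers overlapped.

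The markers of other cell types were read in the same hearts. The 6 fibroblast markers summed to 112 to 188 RPKM in WT sham, 142 to 731 in WT TAC, 138 to 241 in KI sham and 96.2 to 178 in KI TAC, and the highest value was that of WT TAC mouse 10. The 7 leukocyte markers summed to 65.6 to 112 RPKM in WT sham, 140.2 to 195 in WT TAC, 71.1 to 96.2 in KI sham and 90.0 to 106 in KI TAC. Lyz2 was the largest term of that sum in every heart. Leukocyte sums were thus higher in every WT TAC heart than in every heart of the other groups, while fibroblast sums overlapped between TAC and sham in both genotypes. Of the 6 fibroblast markers, Pdgfra alone was higher in every WT TAC heart, at 6.46 to 8.36 RPKM, than in every WT sham heart, at 4.23 to 4.88. The neutrophil genes on the leukocyte list did not follow the sum. S100a9 was at or below 0.48 RPKM in every sham heart, at 1.54 to 4.4 RPKM in WT TAC and at 2.55 to 12.3 RPKM in KI TAC, and S100a8 and Cd68 also overlapped between the TAC groups. The 5 smooth muscle markers summed to 144 to 157 RPKM in WT sham and 179.6 to 262 in WT TAC, without overlap, and to 124 to 199.8 in KI sham and 149 to 208 in KI TAC. The 5 endothelial markers summed to 225 to 322 RPKM over all hearts, and the sums overlapped in each comparison. Of these markers, Pecam1 was higher in every KI TAC heart, at 32.1 to 39.5 RPKM, than in KI sham, at 22.2 to 27.6, and in WT TAC, at 25.5 to 30.6. Of the 12 skeletal muscle markers only Atp2a1 and Mybpc2 could be followed, and the atrial and fat lists were not analysed here. The hearts were bulk tissue, so fewer cells of a type and less RNA per cell cannot be told apart.

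Of the 9 genes, 8 were higher in every WT TAC heart than in every WT sham heart, and the exception, Fhl2, overlapped between the groups. In KI mice the same 8 genes were higher in every TAC heart than in every sham heart, and Fhl2 was lower in all 3. Over all genes tested 35.1% did not overlap in WT and 38.3% in KI, and since the genes were grouped with these contrasts known, nothing is read from the counts. Together the 9 genes supplied 0.483%, 0.399% and 0.432% of all reads on genes in WT sham and 1.39%, 1.46% and 1.04% in WT TAC. In KI sham they supplied 0.448%, 0.528% and 0.426%, and in KI TAC 2.26%, 2.03% and 1.52%. Each KI TAC heart therefore gave these genes a larger share than any WT TAC heart, and the sham groups overlapped.

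**Figure D1:**
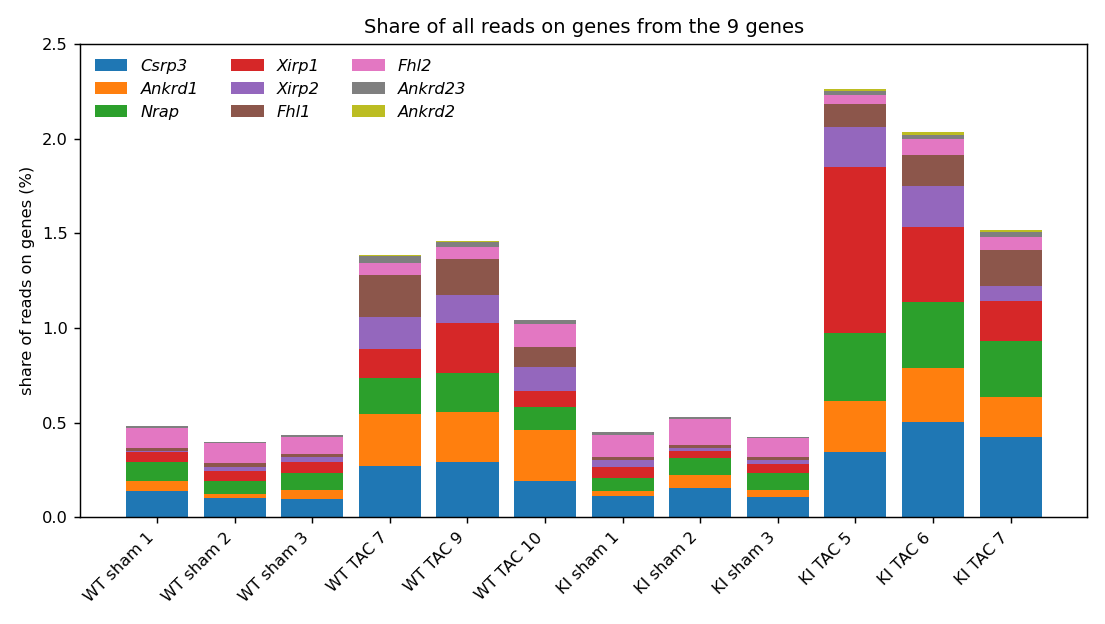
Stacked bars give the share of reads on genes, in percent, that came from each of the 9 genes in each of the 12 hearts. The 6 sham hearts lie between 0.399% and 0.528%. WT TAC hearts reach from 1.04% to 1.46% and those of KI TAC from 1.52% to 2.26%, with Xirp1 taking the widest band in KI TAC mouse 5.

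Ankrd1 (ENSMUSG00000024803, chr19:36111961-36120099 on the minus strand, GRCm38) encodes the cardiac ankyrin repeat protein, which binds titin and acts as a transcriptional cofactor. It was read at 185, 77.2 and 156 RPKM in WT sham and at 961, 914 and 923 RPKM in WT TAC. The KI sham hearts gave 91.8, 239 and 131 RPKM and the KI TAC hearts 935, 994 and 739 RPKM. Hearts of a group varied more after sham surgery than after TAC, with coefficients of variation of 40.0% and 2.62% in WT and 49.5% and 15.0% in KI, and the TAC groups overlapped. The mean in WT TAC was 6.69 times that in WT sham, a difference of 2.83 ± 0.34 (SE) on the log2(RPKM + 1) scale. In KI mice the ratio was 5.78 and the log2 difference 2.63 ± 0.34. Standard errors of log2 differences here and later come from 1 fit to all 12 hearts.

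Ankrd2 (ENSMUSG00000025172, chr19:42036000-42045110 on the plus strand) encodes the ankyrin repeat protein of slow skeletal muscle, which also lies in the I-band and enters the nucleus. It was close to undetected in sham hearts, at 0.520, 0.372 and 0.108 RPKM in WT and 0.467, 0.670 and 0.298 RPKM in KI. These values rest on 3 to 19 reads a heart in WT and 11 to 23 in KI. After TAC the level was 44.4, 25.8 and 5.89 RPKM in WT mice 7, 9 and 10. In KI mice 5, 6 and 7 it was 76.1, 149 and 97.5 RPKM. Every TAC heart was above every sham heart, and every KI TAC heart was above every WT TAC heart.

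Because so few sham reads stand behind it, the size of the Ankrd2 increase is known only within a range. Summed over mice, 32 reads in WT sham stood against 2344 in WT TAC, a ratio per depth of 72.1 with a 95% exact interval of 51.0 to 106. The ratio of the mean RPKM values in WT was 76.2, and 47.6 without WT TAC mouse 7, the highest heart. In KI mice 47 reads stood against 11480, a ratio of 227 with an interval of 171 to 309.8. These intervals cover counting error only. The lowest heart, WT sham mouse 3, had 3 reads, for which the exact Poisson interval is 0.619 to 8.77. On the log2(RPKM + 1) scale, which understates a change from so low a level, the TAC differences were 3.94 ± 0.49 in WT and 6.15 ± 0.49 in KI.

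Ankrd23 (ENSMUSG00000067653, chr1:36530188-36536883 on the minus strand) encodes the diabetes-related ankyrin repeat protein. Its level was 54.1, 28.4 and 25.5 RPKM in WT sham and 148, 101 and 86.2 RPKM in WT TAC. It was 53.0, 35.2 and 28.2 RPKM in KI sham and 81.4, 77.2 and 96.9 RPKM in KI TAC. Both TAC groups lay above their sham groups without overlap, at 3.10 times the mean in WT and 2.196 times in KI. Ankrd23 shares 2109 of its 2697 exonic bases with a predicted gene on the same strand, Gm42417, so the reads assigned to it are uncertain. Of the 3 ankyrin repeat genes Ankrd1 stood apart and the other two overlapped in KI TAC, where the mean was 889 ± 133 (SD, n = 3) RPKM for Ankrd1, 107 ± 37.3 for Ankrd2 and 85.2 ± 10.4 for Ankrd23.

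**Figure D2:**
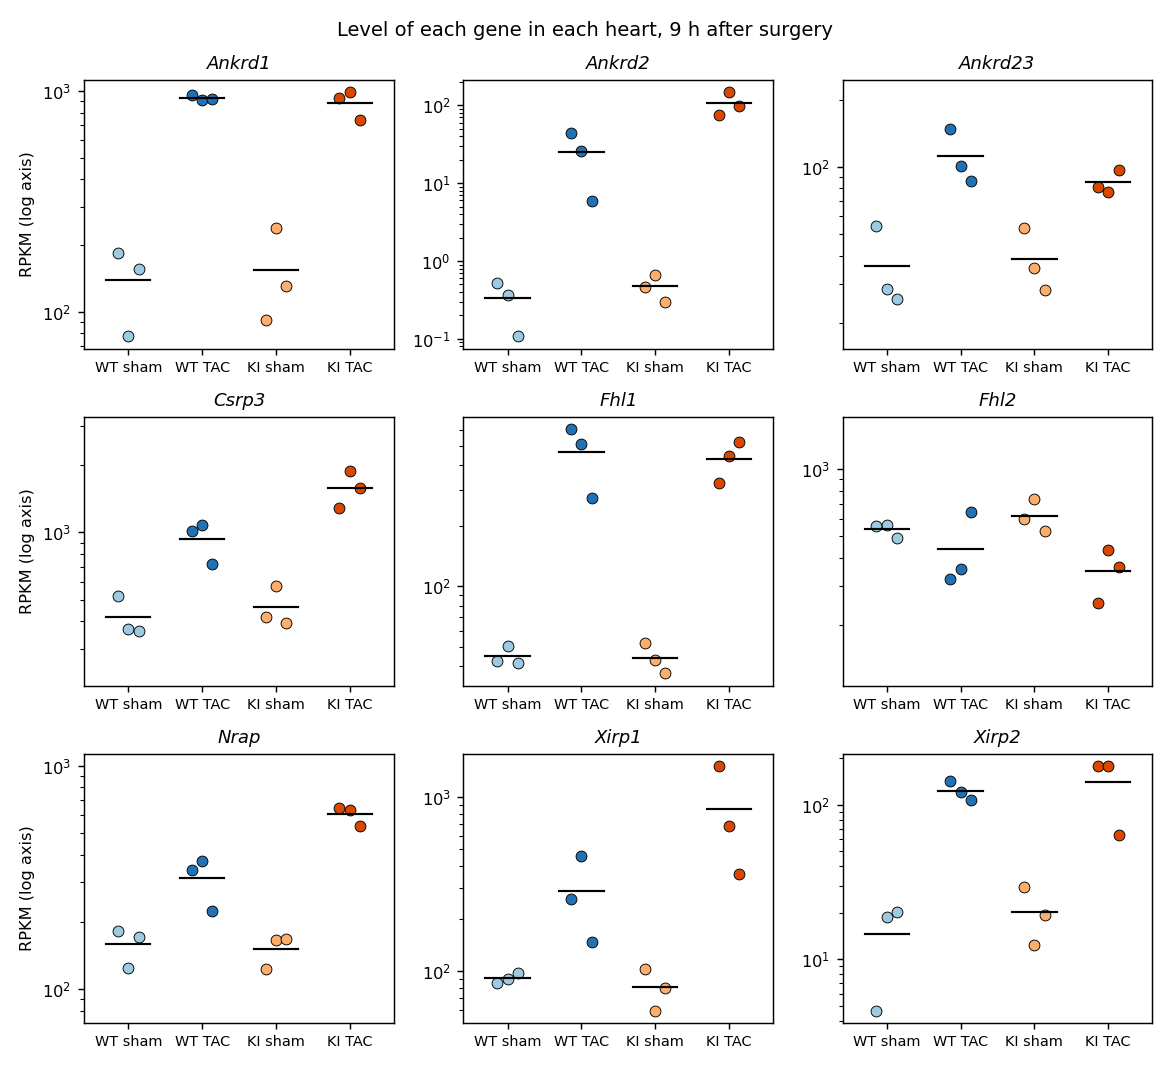
Each panel shows 1 gene on a log axis in RPKM, with a point for each heart and a line at the mean of each group of 3. The level of 8 genes is higher in all TAC hearts than in the sham hearts of the same genotype, Fhl2 does not, and Ankrd2, Csrp3 and Nrap are higher in all KI TAC hearts than in all WT TAC hearts.

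Csrp3 (ENSMUSG00000030470, chr7:48830398-48848033 on the minus strand) encodes muscle LIM protein, which links the Z-disc to signalling and whose loss causes dilated cardiomyopathy in mice. It was read at 517, 370.3 and 360.0 RPKM in WT sham and at 1009.6, 1083 and 719 RPKM in WT TAC. In KI mice it was 418, 575 and 393 RPKM after sham surgery and 1292, 1879.8 and 1584 RPKM after TAC. The mean in WT TAC was 2.25 times that in WT sham, and the mean in KI TAC 3.43 times that in KI sham. After TAC it had the highest median of the 9 genes in both genotypes, and in KI TAC its range did not overlap that of Ankrd1, the next gene.

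Fhl1 (ENSMUSG00000023092, chrX:56731787-56793346 on the plus strand), an X-linked gene for a LIM-only protein that binds titin and is part of a stretch-responsive signalling complex, was evenly low in sham hearts. It was 42.2, 50.6 and 41.3 RPKM in WT sham and 52.2, 42.8 and 36.8 RPKM in KI sham. After TAC it was 605, 508 and 276 RPKM in WT and 325, 445 and 519.7 RPKM in KI. The means differed by a factor of 10.4 in WT and 9.79 in KI, and the log2 differences were 3.28 ± 0.28 and 3.25 ± 0.28. The genotypes overlapped both after sham surgery and after TAC.

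Fhl2 (ENSMUSG00000008136, chr1:43123074-43196984 on the minus strand) encodes the closest cardiac relative of Fhl1 and binds the same kind of partners. It was the most abundant of the 9 genes in sham hearts, at 556, 564 and 493 RPKM in WT and 596, 734 and 529 RPKM in KI. After TAC it was 321, 356 and 642 RPKM in WT mice 7, 9 and 10 and 250.8, 433 and 366 RPKM in KI. In WT TAC mouse 10 it was above every WT sham heart, while the other two WT TAC hearts were below them. The mean in WT TAC was 0.819 times that in WT sham, a log2 difference of -0.36 ± 0.28, and without mouse 10 the difference was -0.66. The mean in KI TAC was 0.565 times that in KI sham, a log2 difference of -0.85 ± 0.28. Fhl1 and Fhl2, which belong to the same protein family, thus stood at unlike levels in sham hearts and at overlapping levels in the TAC hearts of both genotypes.

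Xirp1 (ENSMUSG00000079243, chr9:120013755-120023598 on the minus strand) encodes Xin, an actin-binding protein of the intercalated disc. It was 85.4, 90.5 and 97.7 RPKM in WT sham and 258, 457 and 147 RPKM in WT TAC. It was 103, 59.4 and 79.6 RPKM in KI sham and 1502, 683 and 362 RPKM in KI TAC. The KI TAC hearts spread widely, with a coefficient of variation of 69.3%. The highest of them, mouse 5, was at 4.15 times the lowest, mouse 7, and the lowest lay below the highest WT TAC heart. The ratio of TAC to sham means was 3.15 in WT and 10.5 in KI, and without mouse 5 the ratio in KI was 6.47.

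Xirp2 (ENSMUSG00000027022, chr2:67446002-67526614 on the plus strand), the gene for the related protein also called myomaxin or Xeplin, was lower in level at rest, at 4.65, 18.9 and 20.3 RPKM in WT sham and 29.3, 12.3 and 19.3 RPKM in KI sham. After TAC it was 142, 122 and 107 RPKM in WT and 178, 178 and 63.5 RPKM in KI. The ratio of TAC to sham means was 8.47 in WT and 6.90 in KI, and the log2 differences were 3.21 ± 0.49 and 2.66 ± 0.49. Without WT sham mouse 1, the lowest heart, the WT log2 difference was 2.59 and the WT ratio 6.32. The ratio in KI was 8.78 without KI TAC mouse 7 and 8.86 without KI sham mouse 1, so that the order of the genotypes changed with single hearts. The TAC ranges of the genotypes overlapped for both Xin genes.

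Nrap (ENSMUSG00000049134, chr19:56320035-56390037 on the minus strand) encodes the nebulin-related anchoring protein, which takes part in myofibril assembly and holds actin ends at the intercalated disc. Its level was 183, 124 and 171 RPKM in WT sham and 342, 376 and 223 RPKM in WT TAC. It was 123, 165 and 167 RPKM in KI sham and 649, 631 and 538 RPKM in KI TAC. The mean in KI TAC was 606 ± 59.9 (SD, n = 3) RPKM against 313 ± 80.4 in WT TAC, and every KI TAC heart was above every WT TAC heart. The ratio of TAC to sham means was 1.97 in WT and 3.999 in KI. Nrap shares 268 exonic bases with Habp2 on the opposite strand.

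**Figure D3:**
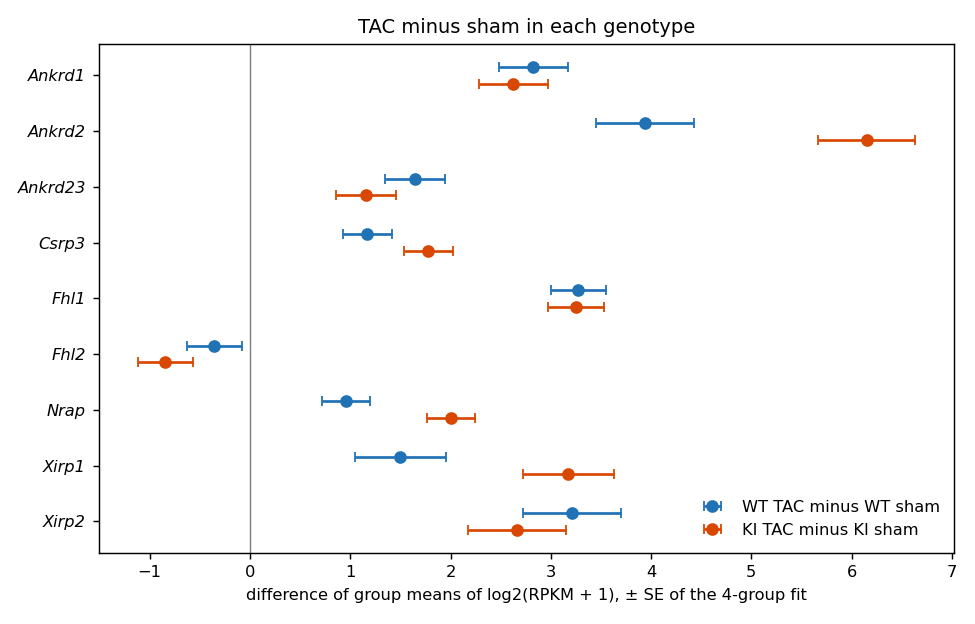
Points give the TAC minus sham difference of each gene on the log2(RPKM + 1) scale in WT (blue) and KI (orange) mice, with bars of 1 SE from the fit to all 12 hearts. Ankrd2 has the largest difference in both genotypes, at 3.94 and 6.15, and Fhl2 is the only gene left of 0, at -0.36 and -0.85.

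Across all 11240 genes tested with limma, 11.6% passed an adjusted p of 0.05 between WT TAC and WT sham, and 35.1% had groups that did not overlap. Of the 9 genes 8 passed and 8 did not overlap, the same 8. Between KI TAC and KI sham 23.3% of all genes passed and 38.3% did not overlap, and all 9 members did both. Nothing is read from these counts either. The median log2 difference of the 9 genes was 1.65 in WT and 2.63 in KI, against 0.04 and -0.10 over all genes tested. The median of all genes thus lay slightly below 0 in KI, and after median-ratio scaling it did not. Some of these calls ended when a heart was left out. In WT this held for Xirp1 without any WT sham heart, WT TAC 7 or 9, KI sham 2 or 3 or KI TAC 6, and for Nrap without WT sham 2 or WT TAC 7 or 9. In KI it held for Fhl2 without WT sham 2 or 3, any KI sham heart or KI TAC 5 or 7, and for Ankrd23 without KI sham 3.

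Between KI TAC and WT TAC hearts, Ankrd2, Nrap and Csrp3 were higher in every KI TAC heart, and of these Ankrd2 and Nrap were past the threshold used for all genes. The log2 difference was 2.36 ± 0.49 for Ankrd2, 0.98 ± 0.24 for Nrap and 0.76 ± 0.24 for Csrp3, against a median of -0.12 over all genes. The ratios of the means were 4.23, 1.93 and 1.69, and that of Ankrd2 was 6.77 without WT TAC mouse 7. Over all genes 11.0% passed and 29.5% did not overlap, while 2 and 3 of the 9 genes are shares of 22.2% and 33.3%. Ankrd2 was known from this contrast when the genes were grouped, and nothing is read from these shares. The other 6 genes overlapped between the TAC groups. Their log2 differences were 1.47 ± 0.45 for Xirp1, 0.04 ± 0.49 for Xirp2, -0.06 ± 0.28 for Fhl1, -0.08 ± 0.34 for Ankrd1, -0.29 ± 0.28 for Fhl2 and -0.36 ± 0.30 for Ankrd23.

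Single hearts weighed on the calls for Ankrd2 and Nrap. WT TAC mouse 10 was the lowest of its group for 7 of the 9 genes and the highest for Fhl2, and it had the highest summed level of fibroblast markers of all hearts, at 731 RPKM. Without it the KI TAC minus WT TAC difference of Ankrd2 was 1.58 and passed, that of Nrap was 0.75 and did not, and that of Csrp3 was 0.58. Without KI TAC mouse 6, which had the most Ankrd2, neither Ankrd2 nor Nrap passed, with 2.10 and 0.95. Nrap also lost its call without WT TAC mouse 7 or KI TAC mouse 5, at 1.06 and 0.93. Conversely, Csrp3 passed without WT sham mouse 1, at 0.76, and after median-ratio scaling, at 0.92. Xirp1 passed without WT TAC mouse 9 or KI TAC mouse 7, at 1.88 and 1.96, and by limma-voom, at 1.48. When only the 6 TAC hearts were fitted, 0 of the 9 genes passed. The leukocyte and cardiomyocyte markers that separated the TAC groups (Ptprc, Csf1r, Adgre1 and Lyz2 lower, and Tnni3, Tnnc1, Myl2 and Myl3 higher, in every KI TAC heart) and the endothelial marker Pecam1, also higher, moved with Ankrd2, Nrap and Csrp3, and their part in the result, like that of the fibroblast signal, was not tested. The skeletal muscle marker Mybpc2 was at 5.98 to 14.8 RPKM in WT TAC and at 3.79 to 7.00 RPKM in KI TAC, where Ankrd2 was highest. The other, Atp2a1, was at or below 0.43 RPKM in every heart but was higher in every KI TAC heart, at 0.285 to 0.383 RPKM, than in WT TAC, at 0.176 to 0.246. Their part in the Ankrd2 level was not tested.

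After sham surgery none of the 9 genes passed between the genotypes. Between KI sham and WT sham 0.0178% of all genes passed and 3.27% did not overlap, and the corresponding count was 0 of 9 on both measures, with 37 of all genes and 0 of the 9 at an unadjusted p under 0.05. The log2 difference of the 9 genes ran from -0.21 ± 0.45 for Xirp1 to 0.59 ± 0.49 for Xirp2, and the adjusted p by limma was 1.00 for each. The standard errors of 0.24 to 0.49 leave room for differences of some size, above all for Xirp2 and Ankrd2.

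When the surgery effect in KI was set against that in WT, the interaction, 0% of all genes passed in the limma fit, with 1668 genes and 3 of the 9 at an unadjusted p under 0.05. The largest positive differences among the 9 genes were those of Ankrd2, 2.21 ± 0.69, Xirp1, 1.68 ± 0.64, and Nrap, 1.05 ± 0.34. That of Csrp3 was 0.61 ± 0.35, and the other 5 were below 0. They were -0.02 ± 0.39 for Fhl1, -0.20 ± 0.49 for Ankrd1, -0.49 ± 0.39 for Fhl2, -0.49 ± 0.43 for Ankrd23 and -0.55 ± 0.69 for Xirp2. A larger increase of Ankrd2 or Nrap in KI than in WT was therefore seen in the levels but did not pass a test of the difference of the increases.

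The order of the genes by median level was the same in both sham groups, from Fhl2 through Csrp3, Nrap, Ankrd1, Xirp1, Fhl1, Ankrd23 and Xirp2 to Ankrd2. In that order Fhl2 overlapped Csrp3, Nrap overlapped Ankrd1, which overlapped Xirp1, and Fhl1 overlapped Ankrd23. Ankrd23 and Xirp2 overlapped in KI sham alone. After TAC the order changed. In WT TAC it ran Csrp3, Ankrd1, Fhl1, Fhl2, Nrap, Xirp1, Xirp2, Ankrd23, Ankrd2. Of neighbours in that order, only Ankrd1 and Fhl1, Xirp1 and Xirp2, and Ankrd23 and Ankrd2 did not overlap. Xirp1, which reached down to 146.7 RPKM, overlapped Ankrd23, which reached up to 147.7 RPKM. In KI TAC it ran Csrp3, Ankrd1, Xirp1, Nrap, Fhl1, Fhl2, Xirp2, Ankrd2, Ankrd23. The neighbours that did not overlap were Csrp3 and Ankrd1, Nrap and Fhl1, and Fhl2 and Xirp2. Xirp1, at 362 to 1502 RPKM, overlapped Csrp3, Fhl1 and Fhl2. Levels are compared between genes per kilobase of exon, and RNA isoforms were not distinguished.

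The genes whose level followed Ankrd1 most closely over the 12 hearts, by Pearson r of log2(RPKM + 1), were Arpc1b, Mettl9, Plekho1, Utp11 and Sele, with r from 0.947 to 0.958. Those closest to Ankrd2 were Tsr1, Uba2, Ddx21, Csrp3 and Aopep, with r from 0.977 to 0.982. The hearts fall into sham and TAC clusters, so these r values mostly restate which genes differ between the clusters. When each heart was expressed as its deviation from its group mean, the closest to Ankrd1 were Gnb3, Ppp2cb, Dnd1, Pabpc4 and Doc2g, with r from 0.907 to 0.963. The closest to Ankrd2 were then Exosc1, Mettl1, Fhl1, Samd1 and Egln1, with r from 0.803 to 0.885, and Fhl1 at 0.841. Between Ankrd1 and Ankrd2 themselves this r was 0.097. All these values share libraries and are descriptions of 12 hearts.

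The 9 genes were set beside genes of related kinds. These lists too were chosen with earlier results of these data known. Their shares and p-values, here and in the paragraphs that follow, are descriptions and no independent test. The 7 tested relatives were Csrp1, Csrp2, Fhl3, Lasp1 and Nebl, and Ankrd24 and Ankrd37, which share only ankyrin repeats with the members. Of these only Fhl3 rose after TAC in WT, from 9.68 ± 3.319 to 21.9 ± 3.41 RPKM, with a log2 difference of 1.13 ± 0.21 (limma, adjusted p = 0.00457). In KI mice Fhl3 rose by 0.95 ± 0.21 (adjusted p = 0.00622), and Ankrd24, named after its value was seen, fell by 0.42 on the log2 scale (adjusted p = 0.047). Ankrd24 was at 0.51 to 1.59 RPKM over all hearts, near the filter on low values. The relatives' median difference was 0.25 in WT and 0.14 in KI, against 0.04 and -0.10 over all genes. The relatives that passed were 14.3% of those tested in WT and 28.6% in KI, near the 11.6% and 23.3% of all genes.

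Of 32 tested genes for proteins linked to the members, mostly titin and proteins of the Z-disc and intercalated disc but also Casq2 of the sarcoplasmic reticulum, Mybpc3 of the A-band and the nucleic acid-binding factor Ybx1, 9 rose and 0 fell after TAC in WT, and again 9 rose and 0 fell in KI. That is 28.1% of the list in each, against 11.6% of all genes in WT and 23.3% in KI, so that the share in KI was near the background. The median difference was 0.28 in WT and 0.37 in KI. Flnc, the gene for the actin crosslinker filamin C, went from 148 ± 14.1 to 833 ± 410.0 RPKM in WT, a log2 difference of 2.34 ± 0.49 (adjusted p = 0.00833). Synpo2l, a Z-disc actin-binding protein, rose from 90.3 ± 7.22 to 504 ± 302 RPKM (adjusted p = 0.00473). Enah, an actin polymerization factor, and the Z-disc PDZ-LIM genes Pdlim5 and Pdlim3 rose by 1.77 ± 0.32, 1.28 ± 0.24 and 1.21 ± 0.26 (adjusted p = 0.00381, 0.00475 and 0.00958). In KI mice Flnc rose by 3.52 ± 0.49 and Pdlim3 by 2.08 ± 0.26 (adjusted p = 0.000329 and 0.000184). Between the TAC groups 2 of the 32 were higher in KI and 1 was lower, 9.38% of the list against 11.0% of all genes. These were Pdlim3, by 0.92 ± 0.26 (adjusted p = 0.0384), and, named after their values were seen, Tcap, the gene for the titin cap, by 1.54 ± 0.42 (adjusted p = 0.0342), and Cdh2, the gene for N-cadherin, which fell by 0.67 on that scale (adjusted p = 0.027).

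TEAD factors bind the MCAT element, and YAP is their coactivator. Of 19 tested target genes of YAP and TEAD, 5 rose and 0 fell in WT and 6 rose and 2 fell in KI, or 26.3% and 42.1% of the list against 11.6% and 23.3% of all genes. The median was 0.34 in WT and 0.33 in KI. Ccn2, a matricellular growth factor, rose by 3.319 ± 0.36 in WT and 3.35 ± 0.36 in KI (adjusted p = 0.000153 and 7.21e-05), and Tgfb2 by 2.18 ± 0.27 and 1.33 ± 0.27 (adjusted p = 0.000374 and 0.00383). Fjx1, Myof and Axl were the other 3 that rose in WT, by 1.16 ± 0.31, 0.89 ± 0.19 and 0.60 ± 0.18 (adjusted p = 0.0256, 0.0104 and 0.049). Ccn2 and Tgfb2 are also made by fibroblasts, and that part was not tested. Fibroblast marker sums overlapped between TAC and sham in both genotypes (142, 306 and 731 RPKM in the WT TAC hearts, and 96.2 to 178 RPKM in KI TAC). Among those markers, Pdgfra was higher in every WT TAC heart than in every WT sham heart. Between the TAC groups 1 of the 19 was higher in KI and 3 were lower, 21.1% against 11.0% of all genes. The higher gene was Gadd45a and the lower ones Myof, Ptpn14 and Arhgef17, named for this contrast after their values were seen. When hearts were left out singly, the call of Myof ended without any of 10 hearts, that of Gadd45a without any of 6 and that of Ptpn14 without any of 4. The call of Arhgef17 held without any heart, and without WT TAC mouse 7 it was the only one left.

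Of 12 markers of load and hypertrophy, 9 rose in WT, 10 rose in KI and 0 fell in either, 75% and 83.3% of the list against 11.6% and 23.3% of all genes, and the median was 2.36 in WT and 3.39 in KI. Since the list was chosen with results of these data known, nothing is read from these shares. Timp1, an inhibitor of matrix proteases, and Tnc, a matrix protein of stressed tissue, rose by 4.86 ± 0.22 and 4.58 ± 0.45 in WT (adjusted p = 4.69e-08 and 5.70e-05). Nppb, the gene for B-type natriuretic peptide, rose from 154 ± 123 to 1211 ± 269 RPKM in WT and from 111 ± 45.8 to 1631 ± 547 in KI (adjusted p = 0.0011 and 0.000181). Acta1, the skeletal actin of the fetal programme, rose by 2.70 ± 0.52 and 1.66 ± 0.52 (adjusted p = 0.00505 and 0.0328). Nppa, the gene for atrial natriuretic peptide, rose in WT by 3.16 ± 0.53 (adjusted p = 0.00263) and was at 44.5 ± 19.2 and 111 ± 73.5 RPKM in KI sham and TAC. Myh7, the slow myosin heavy chain, rose in WT by 1.90 ± 0.44 (adjusted p = 0.0143) and was at 31.1 ± 3.98 and 33.9 ± 12.9 RPKM in KI sham and TAC. Between the TAC groups 3 of the 12 were higher in KI and 4 were lower, 58.3% of the list against 11.0% of all genes, and the median was 0.62. The lower genes were Nppa and Myh7, with log2 differences of -2.12 ± 0.53 and -2.83 ± 0.44 (adjusted p = 0.0251 and 0.00492), and Tnc and Timp1, with -2.41 ± 0.45 and -0.85 ± 0.22 (adjusted p = 0.00832 and 0.0301). The higher genes, named after their values were seen, were the transcription factor genes Atf3 and Myc and the growth factor gene Hbegf, with 3.09 ± 0.76, 1.498 ± 0.41 and 1.77 ± 0.53 (adjusted p = 0.0245, 0.0353 and 0.0479). KI TAC mouse 5 was the highest heart for all 3, and Atf3 was at 545, 82.1 and 27.9 RPKM in KI TAC mice 5, 6 and 7 and at 5.49 to 25.2 RPKM in WT TAC. None of the 4 lists had a gene that passed between the sham groups or in the interaction, where Nppa had a log2 difference of -1.97 ± 0.75 and Myh7 of -1.84 ± 0.63.

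Many of these calls between the TAC groups depended on single hearts. Among the 10 genes named for them from the lists of linked proteins and load markers, the calls of Tnc and Myh7 held without any heart. Those of the other 8 each ended without WT TAC mouse 7, WT TAC mouse 10 or KI TAC mouse 6. Those of Cdh2, Nppa, Timp1, Hbegf and Myc also ended without KI TAC mouse 5, those of Tcap and Pdlim3 without KI TAC mouse 7, and that of Tcap without WT TAC mouse 9. Removal of some sham hearts ended those of Pdlim3, Myc and Hbegf as well. Over all hearts left out in turn, the log2 difference ran from 1.93 to 4.05 for Atf3, 0.97 to 1.86 for Myc, 1.13 to 2.31 for Hbegf, 1.40 to 1.74 for Tcap and 0.70 to 1.17 for Pdlim3. It ran from -0.76 to -0.60 for Cdh2, -2.63 to -1.70 for Nppa and -0.999 to -0.67 for Timp1. Between TAC and sham, the named calls that ended without single hearts were those of Fjx1 (1.09 to 1.28, 4 hearts), Axl (0.54 to 0.65, 9 hearts) and Myh7 (1.55 to 2.501, WT sham 1 or 3) in WT and of Ankrd24 (-0.47 to -0.37, 9 hearts) and Acta1 (1.24 to 2.18, 4 hearts) in KI.

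**Figure D4:**
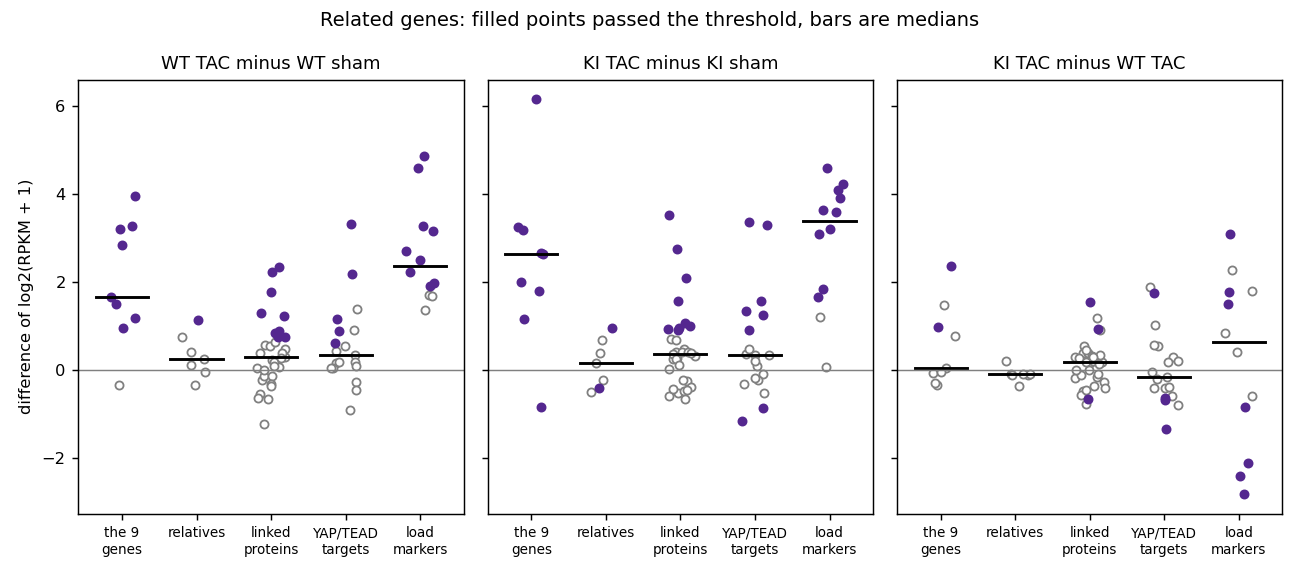
Each point is a gene's difference on the log2(RPKM + 1) scale in 3 comparisons, for the 9 genes, their tested relatives (7), genes for linked muscle proteins (32), YAP/TEAD targets (19) and load markers (12). Filled points passed an adjusted p of 0.05 and bars are medians, which for the 9 genes are 1.65, 2.63 and 0.04, for relatives 0.25, 0.14 and -0.11, and for load markers 2.36, 3.39 and 0.62.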

How the data were processed

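RNA from 12 mouse hearts was measured as 1 strand-specific poly(A) library each. Per the labels and the study's methods, the authors trimmed reads with Trimmomatic (0.39), aligned them to GRCm38 with HISAT2 (2.2.1), counted them per gene with HTSeq (0.6.1) and deposited RPKM values, already corrected for depth and exon length, for 13552 genes. Multiplied by the exon lengths of GENCODE M21, the values came out as whole reads for 97.2% to 98.1% of low values a heart, which gave the depths. The 11240 genes with a value of 1 RPKM or higher in 3 hearts or more were tested with limma (3.58.1, R 4.3.3; lmFit, eBayes with trend) on log2(RPKM + 1) in a model of 4 groups with Benjamini-Hochberg adjustment at 0.05. In simulated data on 10974 genes for WT TAC against WT sham, 87% of 2-fold and 99% of 4-fold changes were recovered, and 5.10% of calls were false. The median fitted log2 difference was 0.74 and 0.84 times the true one for 2-fold and 4-fold changes. The simulation changed 200 genes and gave every gene the same spread, the median over genes in the KI sham hearts. These shares therefore do not carry over to genes with a wider spread.

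The 9 genes and all lists were chosen with earlier results of these data known. All 9 are named. From the other lists, at most 5 genes past the threshold with the largest difference in WT are named, with Nppa, Nppb and Myh7. Ankrd24, Tcap, Cdh2, Gadd45a, Ptpn14, Arhgef17, Atf3, Myc and Hbegf fell outside this rule and were named after their values in the KI comparisons were seen. Also named are, for Ankrd1 and Ankrd2, the 5 genes with the highest r, predicted genes and pseudogenes passed over. The mouse numbers of the sham groups did not pair them. Alternatives were a pseudocount of 0.1, no filter on low values, quantile normalization, scaling by median ratios, limma-voom run on whole reads, a fit of only the groups compared, leaving out each heart and a replicate block. Proteins were not compared, and promoter sequence is from RefSeq (GRCm38.p6). Of 13552 gene identifiers 13546 were found in the annotation.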

Additional observations from a re-analysis of the deposited data

How the results depend on the processing

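The number of the 9 genes past the threshold stayed within 1.5 times its value for TAC against sham in both genotypes, between 6 and 8 in WT and 7 and 9 in KI when each heart was left out in turn. Between KI TAC and WT TAC it was 2, but 1 after quantile normalization, 0 when only the TAC hearts were fitted, 3 after median-ratio scaling (Csrp3 added) and by limma-voom (Xirp1 added), and 0 to 3 when a heart was left out: 0 without KI TAC 6, 1 without WT TAC 7, WT TAC 10 or KI TAC 5, and 3 without WT sham 1, WT TAC 9 or KI TAC 7. The fit of fewer hearts rests on fewer degrees of freedom, and the cause of the other changes was not tested. In WT, Xirp1 lost its call in 10 of 18 alternatives (without the filter, with median-ratio scaling and without any of 8 hearts) and Nrap without WT sham 2, WT TAC 7 or WT TAC 9. In KI, Fhl2 lost its call in 8 alternatives (median-ratio scaling and 7 hearts left out) and Ankrd23 without KI sham 3. The Ankrd2 difference of WT TAC from WT sham was 3.36 to 4.72 without single hearts, 5.60 with a pseudocount of 0.1 and 5.97 by limma-voom, and that of KI 7.79 by limma-voom. No direction of a called value reversed. The counts between sham groups and in the interaction stayed at 0 in all alternatives run. Among the genes of the 4 lists together, 24 passed in WT, and 18 to 26 with a heart left out.

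In the replicate block of the 6 sham hearts by mouse number, 0 of the 9 genes passed, and the log2 difference of Xirp2 was again 0.59. Hearts with the same number had deviations correlated at -0.22, -0.30 and 0.44, and not every heart correlated best with its own number. The TAC groups share numbers with each other only for mouse 7, so no other pairing was tried.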
